A study of Homo sapiens with 38 samples.

Results

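Parental A375 cells, a human melanoma line whose growth is driven by an oncogenic RAF kinase, were compared after exposure to a RAF inhibitor or to a MEK inhibitor. The arrays of interest were those labelled 1 µM GSK436 alone (GSK2118436, dabrafenib, a RAF inhibitor; 2 arrays, replicates 2 and 3). They were set against the arrays labelled 10 nM GSK212 alone (GSK1120212, trametinib, a MEK inhibitor; 3 arrays, replicates 1 to 3). These were chosen by their labels and make up 5 of the 38 arrays of the series. All cells had been treated for 24 h. Other parental arrays used below were 3 with both drugs at 1 µM GSK436 and 10 nM GSK212, 3 with both at 0.1 µM and 10 nM, 2 with 0.1 µM GSK436, 2 with 30 nM GSK212 and 3 with DMSO, the vehicle. The same single doses in 16R6-4, an A375 clone selected for resistance to GSK2118436 and called resistant here, gave 3 arrays each. 16R6-4 is 1 clone, and nothing in the labels ties the arrays of a group to separate cultures. A p therefore reflects spread among arrays, which could be technical. That spread was estimated over all 38 arrays in 14 groups, and not from the 5 arrays alone. It includes resistant cells with DMSO, other single doses and both combinations.

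RAF kinases phosphorylate MEK, and MEK phosphorylates ERK, so both drugs act on 1 chain of kinases at different steps. ERK turns on its own brakes, among them the DUSP phosphatases and the Sprouty proteins, and their transcripts are used as a readout of ERK activity. A separate route, the integrated stress response, begins with kinases that phosphorylate the translation factor eIF2α. Bulk translation then falls while the transcription factor ATF4 is made, and ATF4 turns on genes for amino acid synthesis, amino acid uptake, tRNA charging and stress-linked death.

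With 1 µM GSK436, genes of the ATF4 pathway were higher than with 10 nM GSK212, while most ERK output genes did not pass the test between the drugs. Of 18063 genes tested, 147 were called (0.814%), 69 higher (0.382%) and 78 lower (0.432%) with GSK436. To be called, a gene needed both an adjusted p below 0.05 in limma and a log2 fold change of 1 or more in either direction. Log2 fold changes ± standard error are of 1 µM GSK436 over 10 nM GSK212 in parental cells unless another pair is named. Of the 69 genes called higher, 26 belonged to the 64 measured genes of the ATF4 pathway. The median log2 fold change of these 64 was 1.05, against 0.12 over all genes, and 56 of the 64 lay above 0. Arrays of the groups did not overlap in 146 of the 147 called genes and in 5812 of all genes (32.2%).

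**Figure D1:**
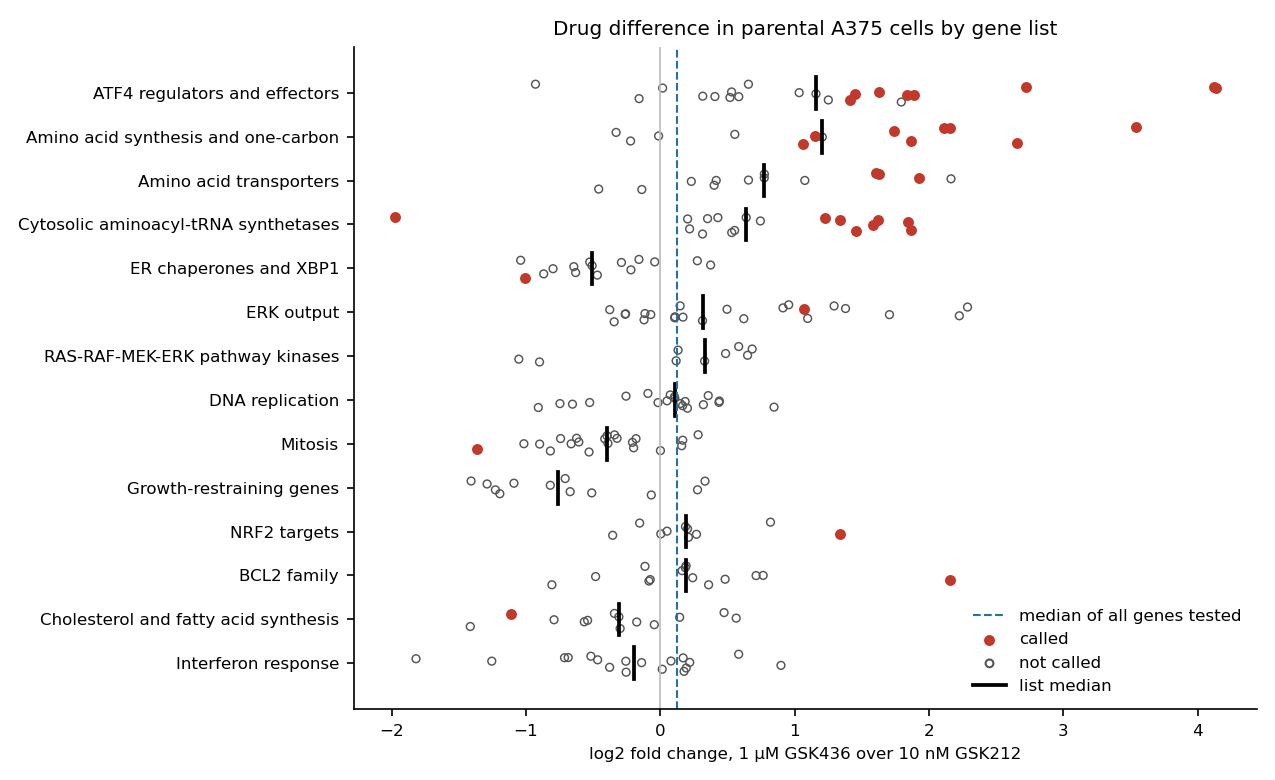
Log2 fold change of 1 µM GSK436 over 10 nM GSK212 in parental cells, 1 point per measured gene and 1 row for each gene list shown. Other lists, among them epithelial markers and extracellular matrix, are not drawn. Filled points passed the test, black bars are list medians, and the dashed line is the median of all 18063 genes (0.12). The filled points to the right lie mostly in the upper 4 rows, the ATF4 pathway.

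The arrays differed in ways other than drug. The actin 3' to 5' ratio, which is higher where RNA is shorter, was 23.3 and 32.6 with GSK436, against 15.4, 32.1 and 5.90 with GSK212 (replicates 1, 2 and 3). The median signal was 44.9 and 49.8 with GSK436 and 36.1, 39.7 and 29.01 with GSK212, although every array had been scaled to the same trimmed mean. Centring each array on its median moved the median fold change of all genes to -0.30, and the share of called genes that were higher from 46.9% to 25.2% (31 of 123). After quantile normalization it was 33.5% (83 of 248). Of the ATF4 pathway genes, 18 were called higher after centring and 27 after quantile normalization, against 26 as deposited. Single arrays moved the count of called genes. It was 317 without GSK436 replicate 2 and 44 without GSK436 replicate 3, and 566, 129 and 57 without GSK212 replicates 1, 2 and 3. Between 20 and 27 ATF4 pathway genes were called higher in each of these 5 fits. A bulk array cannot tell more RNA per cell from a larger share of cells that make it. Melanoma markers summed to 21120 to 25330 with GSK436, 20260 to 23260 with GSK212 and 20520 to 22740 with DMSO. Most of each sum came from VIM, which does not mark melanoma alone, with means of 16480, 16430 and 17600 in the same order. VIM, MIA and SOX10 were above the pooled median on all 5 arrays, while MLANA, a pigment cell antigen, was below it on all 5 and TYR on 4. Leukocyte markers (8 of 11 measured) summed to 334.9 to 344.4 with GSK436 and 211 to 351.7 with GSK212, and endothelial markers (4 of 5) to 104.8 to 157.5 and 38.7 to 83.9, with VWF under the pooled median on all 5 arrays. Their part in the results was not tested.

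ATF4 itself, the transcription factor at the head of the pathway, had signals of 10030 and 8024 with GSK436, against 3385, 3815 and 2953 with GSK212. DMSO arrays gave 4233, 4152 and 5085. Both GSK436 arrays lay above all GSK212 and DMSO arrays, and the difference between the drugs was 1.41 ± 0.16 (adjusted p = 2.97e-07). Centring left ATF4 just under the fold threshold, at 0.99. CEBPG, a dimer partner of ATF4, was higher by 1.45 ± 0.22 (adjusted p = 0.000105), at 310.7 and 259.7 with GSK436 against 81.1, 113 and 116 with GSK212. Its DMSO arrays read 261.8, 218.2 and 174.3, so GSK436 lay near vehicle and GSK212 below it.

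Among the effectors, DDIT3, the death-linked transcription factor CHOP, read 811 and 681 with GSK436 and 231, 207 and 183 with GSK212. It was higher by 1.84 ± 0.20 (adjusted p = 2.98e-07). TRIB3, a pseudokinase induced by ATF4 and CHOP, read 2070 and 2062 with GSK436 and 694, 523 and 474 with GSK212 (1.89 ± 0.19, adjusted p = 7.49e-08). For both genes the groups were far apart relative to their spread. INHBE, an inhibin β subunit, and CHAC1, a glutathione-degrading enzyme, had the largest differences of all named genes. INHBE read 369.6 and 318.3 with GSK436 and 8.98, 18.4 and 27.8 with GSK212 (4.13 ± 0.52, adjusted p = 4.59e-06). CHAC1 read 422.4 and 556.3 with GSK436 and 53.3, 30.9 and 8.77 with GSK212 (4.12 ± 0.70, adjusted p = 0.000666). All GSK212 values but 1 lay under the pooled median signal of 34.88 in these 2 genes, so their fold changes rest on dim values and both genes entered the test through their bright groups. NUPR1, a small stress-induced chromatin protein, was bright on both sides, with 1726 and 1899 against 327, 289.9 and 213.2 (2.72 ± 0.24, adjusted p = 3.56e-09). JDP2, a basic leucine zipper repressor, was higher by 1.63 ± 0.36 (adjusted p = 0.0131).

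The regulators and effectors list held 8 called genes of 21, all higher, with a median of 1.16. Among the 13 that did not pass were SESN2, an inhibitor of mTORC1 signalling (1.16, adjusted p = 0.0591), the stress cytokine GDF15 (1.79, adjusted p = 0.0898) and DDIT4, another mTORC1 inhibitor (0.53, adjusted p = 0.222). A second SESN2 probe set was called in a fit of all probe sets (1.23, adjusted p = 0.0499 in limma), and SESN2 was called in 5 of 17 other fits. ATF3, a stress-induced repressor, lay in the other direction (-0.93 ± 0.24, adjusted p = 0.0399) and missed the fold threshold. It read 354 and 277.7 with GSK436 and 547.1, 564.2 and 699 with GSK212, without overlap, and a mean of 97.3 with DMSO. Its other probe sets gave 1.40 and 0.26, neither called, and the mean of its probe sets lay on the other side of 0, at 0.25.

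**Figure D2:**
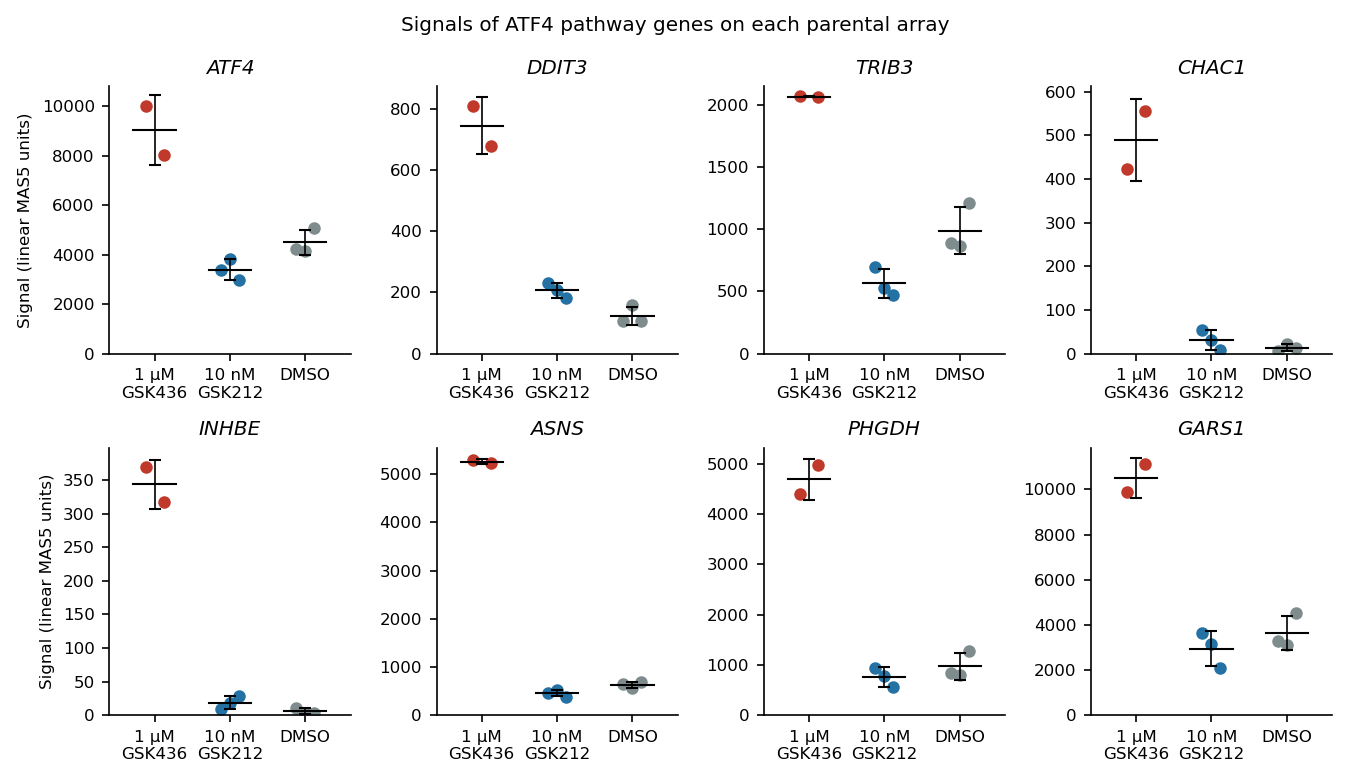
Linear MAS5 signals of 8 ATF4 pathway genes on the parental arrays with 1 µM GSK436 (n = 2), 10 nM GSK212 (n = 3) and DMSO (n = 3). Points are arrays, horizontal bars are means and whiskers 1 SD. In all 8 genes both GSK436 arrays lie above every other array shown.

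The enzymes of amino acid synthesis and one-carbon metabolism gave 8 called genes of 13 measured, all higher, with a median of 1.20. ASNS, asparagine synthetase, read 5297 and 5230 with GSK436, against 460.9, 518.1 and 382.3 with GSK212 and 651, 559.6 and 682.7 with DMSO. The drugs differed by 3.54 ± 0.15 (adjusted p = 1.01e-17), an 11.6-fold ratio, with GSK436 far above both other groups. PHGDH, PSAT1 and PSPH carry out the 3 steps from a glycolytic intermediate to serine, and all 3 were higher. PHGDH read 4410 and 4984 with GSK436, against 940.1, 784 and 551.8 with GSK212 (2.66 ± 0.22, adjusted p = 8.31e-10). PSAT1 read 7029 and 6390 against 1542, 1117 and 1972 (2.15 ± 0.21, adjusted p = 2.04e-08). PSPH read 915.8 and 913.8 against 478.7, 341.4 and 422 (1.15 ± 0.24, adjusted p = 0.00993). Next in the route, SHMT2 and MTHFD2 pass the carbon of serine to folate in mitochondria. SHMT2 was higher by 1.74 ± 0.30 (adjusted p = 0.000709) and MTHFD2 by 1.86 ± 0.17 (adjusted p = 6.76e-09). CBS, which joins serine to homocysteine, was higher by 2.11 ± 0.37 (adjusted p = 0.000907), and PYCR1, a proline-forming enzyme, by 1.06 ± 0.25 (adjusted p = 0.0248). PSPH and PYCR1 were the least stable of these calls and were lost in 5 and 6 of 17 other fits. ALDH18A1, which acts before PYCR1, and CTH, which acts after CBS, lay at -0.22 and -0.33 and were not called. PCK2, the mitochondrial phosphoenolpyruvate carboxykinase, stood outside the list but among the leading genes, with 952.4 and 849.5 against 179, 192.1 and 182.1 (2.27 ± 0.23, adjusted p = 4.77e-08).

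Of 13 amino acid transporters, 3 were called, all higher, with a list median of 0.77. SLC1A4, a carrier of serine and alanine, read 333.5 and 362.2 with GSK436 and 103.8, 95.4 and 72.4 with GSK212 (1.92 ± 0.32, adjusted p = 0.000597). SLC1A5, a glutamine carrier, read 359.4 and 399.2 against 115.6, 124.1 and 127.9 (1.61 ± 0.27, adjusted p = 0.0007). SLC43A1, a carrier of large neutral amino acids, was higher by 1.62 ± 0.33 (adjusted p = 0.00587). The heavy chain SLC3A2 and its partners did not reach the thresholds. SLC3A2 lay at 0.77 (adjusted p = 0.0251), the cystine carrier SLC7A11 at 0.77 (adjusted p = 0.0825) and the leucine carrier SLC7A5 at 0.42 (adjusted p = 0.163). SLC38A1, a glutamine carrier, was not called at 0.66, but another of its probe sets was (1.07, adjusted p = 5.89e-05 in limma over all probe sets).

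Cytosolic aminoacyl-tRNA synthetases, which load amino acids onto tRNA, gave 7 called higher and 1 called lower among 17 measured (median 0.64). The 7 were the enzymes for glycine (GARS1, 1.87 ± 0.19), tryptophan (WARS1, 1.85 ± 0.27), tyrosine (YARS1, 1.62 ± 0.21), serine (SARS1, 1.58 ± 0.19), cysteine (CARS1, 1.46 ± 0.25), alanine (AARS1, 1.34 ± 0.19) and, jointly, glutamate and proline (EPRS1, 1.22 ± 0.21). Their adjusted p ran up to 0.000655, that of CARS1. GARS1 read 9865 and 11130 with GSK436, against 3627, 3139 and 2077 with GSK212. RARS1, for arginine, was lower by 1.98 on the log2 scale (SE 0.48, adjusted p = 0.0277), with 1315 and 811.9 against 2848, 4340 and 5489. In both genes the groups did not overlap, but the call for RARS1 was lost in 6 of 17 other fits, while that for GARS1 was kept in all 17. Synthetases that did not pass included those for lysine (KARS1, 0.53), histidine (HARS1, 0.35), valine (VARS1, 0.31), threonine (TARS1, 0.22) and both phenylalanine subunits (FARSA, 0.74; FARSB, 0.20). NARS1, for asparagine, had an adjusted p of 0.00427 at 0.64, under the fold threshold.

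Promoters of the called genes were searched for the core of the element that ATF4 binds together with C/EBP proteins, TGATGNAA on either strand. The windows run from 250 bases before to 50 bases after each start site (RefSeq, GRCh38.p14). It occurred in 3.62% of 35116 windows, and in at least 1 window of 3.51% of the 14156 tested genes that had one. In the ATF4 pathway 18 of the 54 genes with a window held it (33.3%), and so did 9 of the 20 with a window among the 26 called higher (45%). Of all genes called higher 13 of 52 held it (25%), of those called lower 4 of 64 (6.25%), and of ERK output genes 1 of 12 (8.33%). The endoplasmic reticulum (ER) stress element, a CCAAT box and CCACG spaced by 9 bases, was found in 6 of 15 promoters of ER chaperone genes, in 0 of the 54 ATF4 pathway genes and in 0.0769% of all windows. A match describes letters and not binding. 1 promoter for each role is shown, with the core or its reverse complement in capitals: an effector (CHAC1, chr15:40953221-40953520, plus strand), a synthesis enzyme (ASNS, chr7:97872359-97872658, minus strand), a transporter (SLC1A4, chr2:64989149-64989448, plus strand) and a synthetase (GARS1, chr7:30594628-30594927, plus strand). The first capital lies 209, 68, 7 and 33 bases before the start site in CHAC1, ASNS, SLC1A4 and GARS1.
CHAC1: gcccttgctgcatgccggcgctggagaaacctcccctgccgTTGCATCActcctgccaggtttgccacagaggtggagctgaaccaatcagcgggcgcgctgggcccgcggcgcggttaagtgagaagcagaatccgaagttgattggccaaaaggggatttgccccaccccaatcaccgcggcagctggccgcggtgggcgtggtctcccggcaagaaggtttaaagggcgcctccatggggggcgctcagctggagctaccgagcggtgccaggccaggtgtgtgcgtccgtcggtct
ASNS: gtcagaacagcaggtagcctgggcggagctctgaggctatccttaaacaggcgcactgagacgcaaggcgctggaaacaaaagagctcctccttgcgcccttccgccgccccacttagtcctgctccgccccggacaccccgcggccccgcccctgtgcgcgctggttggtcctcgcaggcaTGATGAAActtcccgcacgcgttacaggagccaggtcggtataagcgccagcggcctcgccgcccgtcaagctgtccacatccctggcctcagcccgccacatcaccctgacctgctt
SLC1A4: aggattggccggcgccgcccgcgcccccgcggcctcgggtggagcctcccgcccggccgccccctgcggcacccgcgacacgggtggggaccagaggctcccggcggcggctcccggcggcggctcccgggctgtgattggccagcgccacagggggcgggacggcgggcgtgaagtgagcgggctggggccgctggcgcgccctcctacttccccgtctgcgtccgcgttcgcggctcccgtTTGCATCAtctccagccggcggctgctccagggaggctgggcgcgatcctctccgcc
GARS1: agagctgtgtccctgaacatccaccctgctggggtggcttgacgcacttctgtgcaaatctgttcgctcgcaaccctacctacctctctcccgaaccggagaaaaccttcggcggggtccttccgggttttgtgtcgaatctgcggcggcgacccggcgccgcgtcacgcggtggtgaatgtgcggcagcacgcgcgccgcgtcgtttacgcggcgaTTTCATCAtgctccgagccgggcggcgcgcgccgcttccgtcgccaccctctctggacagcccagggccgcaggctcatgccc
Of the 4 cores 3 are written as the reverse complement, and that of ASNS reads forward.

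Against DMSO, more ATF4 pathway genes were called higher than lower with GSK436, and slightly more were called lower than higher with GSK212. Both comparisons use the same DMSO arrays, and their values are given side by side. With 1 µM GSK436, 33 of the 64 genes were called higher than DMSO (11.8% of all genes were) and 3 lower (7.68%), with a median of 1.07 (all genes 0.39). With 10 nM GSK212, 6 were called higher (7.68% of all genes) and 8 lower (4.04%), with a median of 0.04 (all genes 0.17). ASNS lay at 3.06 ± 0.15 over DMSO with GSK436 and at -0.48 ± 0.14 with GSK212. For PHGDH the values were 2.30 ± 0.22 with GSK436 and -0.35 ± 0.20 with GSK212. MTHFD2 showed another pattern, at 0.18 ± 0.17 with GSK436 and -1.69 ± 0.15 with GSK212, so that GSK436 was near vehicle and GSK212 below it. SLC1A5 (-0.31 ± 0.27 with GSK436, -1.92 ± 0.24 with GSK212) and CEBPG (0.40 ± 0.22 and -1.05 ± 0.20, in the same order) were like it. NUPR1 was above DMSO with both drugs, by 5.74 ± 0.24 with GSK436 and 3.02 ± 0.21 with GSK212. After centring, which moved all genes, 14 of the 64 were called higher and 5 lower with GSK436, and 4 higher and 11 lower with GSK212. Both GSK436 arrays, but not GSK212 replicate 3, had higher actin ratios than the DMSO arrays, whose ratios were 6.65, 4.59 and 12.05. With the log2 actin ratio in the fit, 26 ATF4 pathway genes were still called higher between the drugs.

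**Figure D3:**
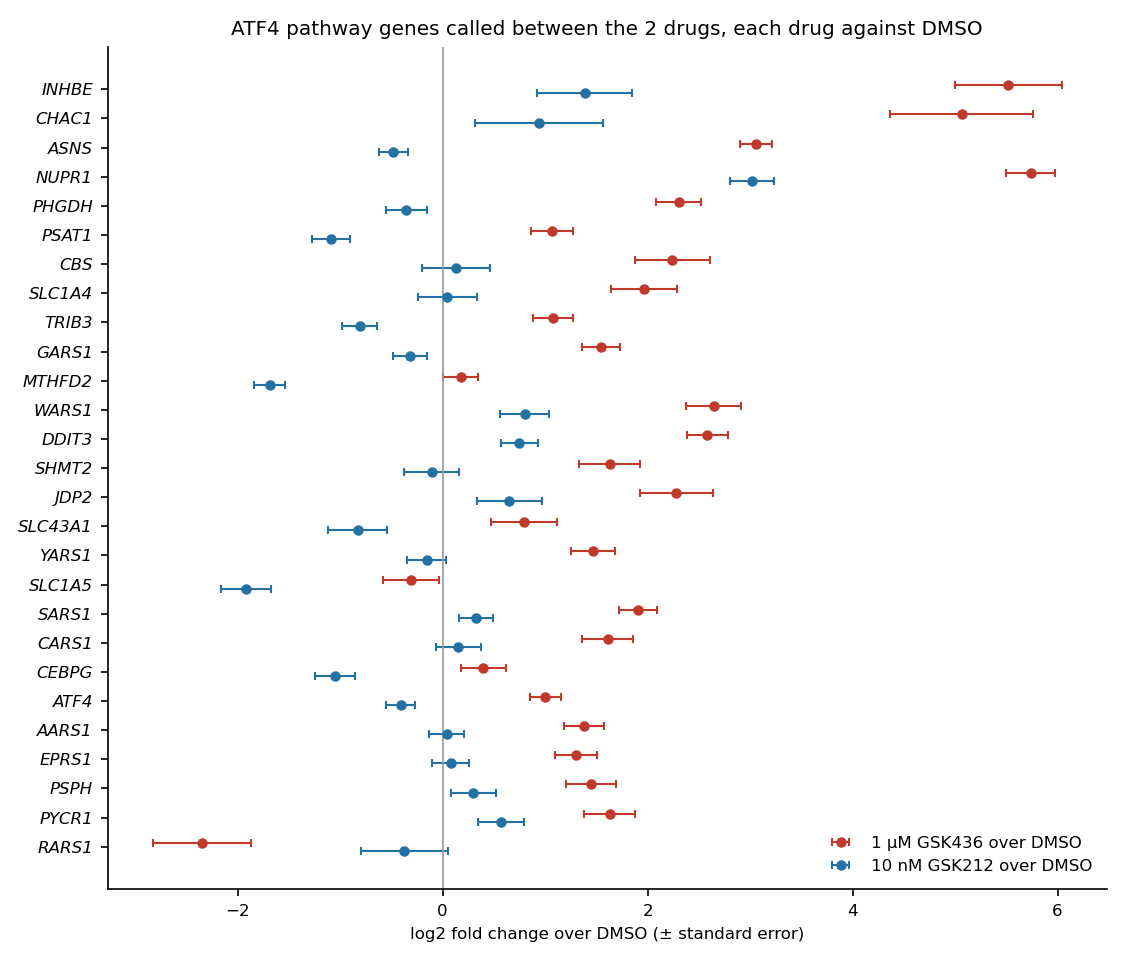
Log2 fold change over DMSO (± standard error) of the 27 ATF4 pathway genes called between the drugs, for 1 µM GSK436 (red, 2 arrays) and 10 nM GSK212 (blue, 3 arrays), each against the same 3 DMSO arrays. Genes are ordered by the difference between the drugs, the highest at the top. Most red points lie well above 0 and most blue points near or below it, and RARS1 at the bottom runs the other way.

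ATF4 pathway genes were also higher at 1 µM than at 0.1 µM GSK436 on arrays that the comparison above did not use. Both combination groups held 10 nM GSK212 and differed only in GSK436, at 1 or 0.1 µM (3 arrays each). There, 83 genes were called, 61 higher (0.338%) and 22 lower (0.122%) at 1 µM, and 24 of the 61 higher genes were ATF4 pathway genes, with 0 lower and a median of 0.93 (all genes 0.07). Of the 26 ATF4 pathway genes called between the single drugs, 23 were called higher here, and all 26 had a positive log2 fold change. Of all 69 genes called higher between the single drugs, 35 were called higher here, which is 50.7% of the 69 and 57.4% of the 61. ASNS read 4546, 4479 and 4377 in the combination with 1 µM and 596.1, 587.4 and 551.8 with 0.1 µM (2.94 ± 0.14, adjusted p = 9.69e-17). WARS1 read 4430, 4039 and 4224 with 1 µM and 1398, 949.1 and 1002 with 0.1 µM (1.94 ± 0.24, adjusted p = 3.01e-06). The groups lay far apart in both genes. Without GSK212, 0.1 µM GSK436 gave ASNS signals of 520.7 and 661.4, and 30 nM GSK212 gave 458.5 and 385.6, all below the highest DMSO array. The actin ratio was 27.5, 14.9 and 24.3 with the higher and 23.1, 4.26 and 4.64 with the lower combination. With it in the fit, 50 genes were called, 21 of them ATF4 pathway genes, all higher. After centring 36 genes were called, 32 of them higher (88.9% against 73.5% as deposited), and after quantile normalization 160, with 77 higher (48.1%). Every array moved the 83 calls by over 1.5 times. The count was 53, 138 and 54 without replicates 1, 2 and 3 of the 1 µM combination, and 155, 51 and 46 without those of the 0.1 µM combination. Between 19 and 26 ATF4 pathway genes were called higher in those 6 fits.

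**Figure D4:**
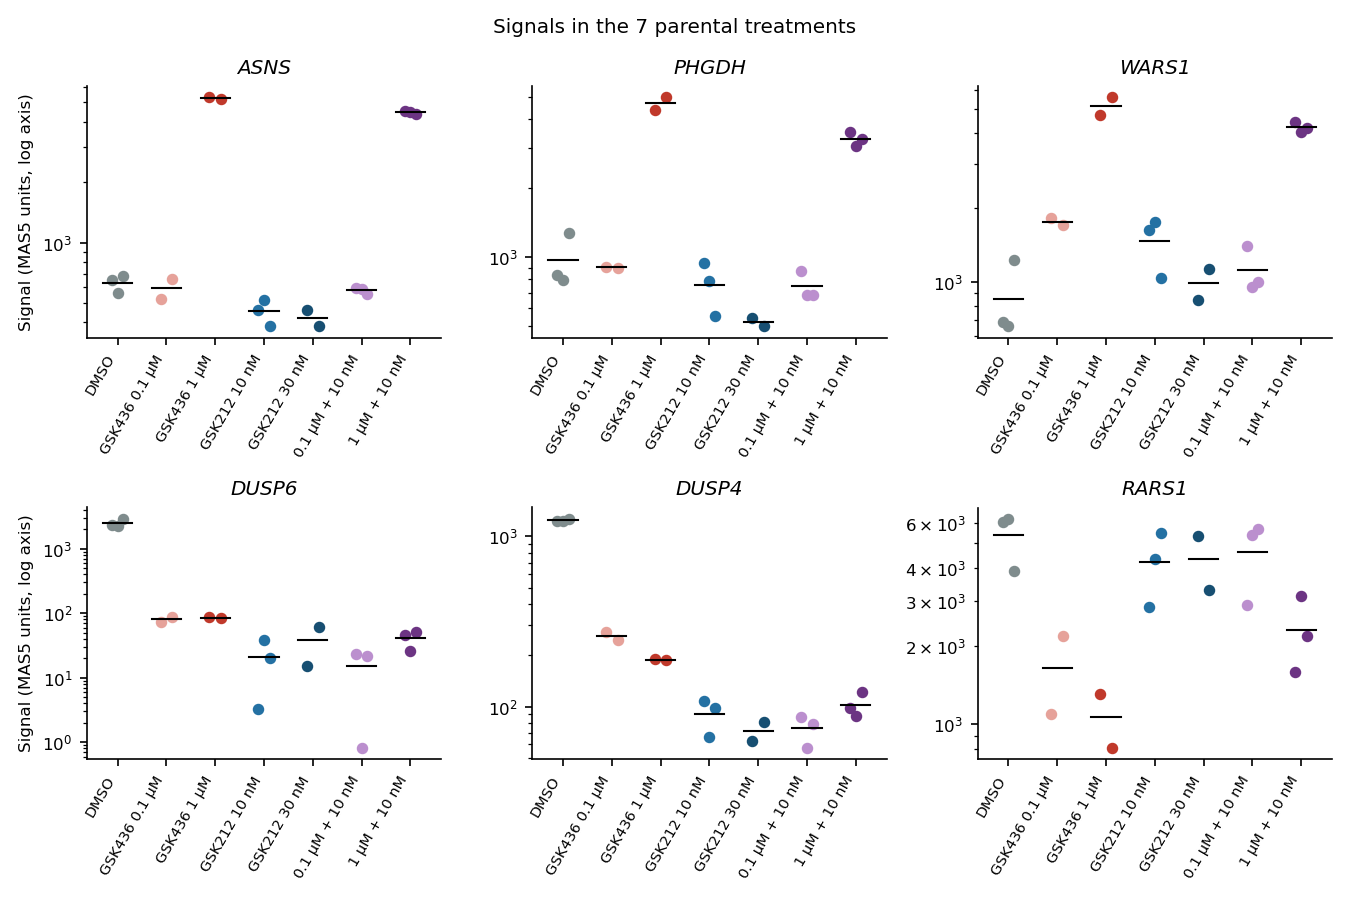
Signals of 6 genes (log axes) in the 7 parental treatments, 1 point per array with a bar at the mean. ASNS, PHGDH and WARS1 are high on the 5 arrays with 1 µM GSK436, alone or with GSK212, and DUSP6 and DUSP4 lie below DMSO on all drug arrays.

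At the other single doses, 0.1 µM GSK436 over 30 nM GSK212 (2 arrays each), few ATF4 pathway genes were called. There, 115 genes were called higher (0.637%) and 302 lower (1.67%). Of the 64 ATF4 pathway genes 1 was called higher, GDF15 (2.46, adjusted p = 0.027), and 2 lower, ATF3 (-1.90, adjusted p = 8.61e-05) and CTH (-2.10, adjusted p = 0.00322). The median was 0.42, against 0.14 for all genes. None of the 26 genes was called, and ASNS lay at 0.48 (adjusted p = 0.0979). Of the 69 genes called higher at the main doses 6 were called higher here (8.7% of the 69, 5.22% of the 115), DUSP4 and the receptor adaptor GRB10 among them. These counts rest on single arrays as well, since the 417 calls became 76 and 297 without replicate 2 or 3 of 0.1 µM GSK436, and 58 and 44 without replicate 2 or 3 of 30 nM GSK212. The difference between the dose pairs was not tested, because the doses of both drugs change.

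Most ERK output genes were far below DMSO with both drugs, and 1 was called between them. Of 23 genes, 18 were called lower than DMSO with GSK436 (7.68% of all genes were) and 18 with GSK212 (4.04%). The medians were -2.42 and -2.59, against 0.39 and 0.17 for all genes. Between the drugs 1 of the 23 was called higher (0.382% of all genes) and 0 lower (0.432%), with a median of 0.31 (all genes 0.12). After centring, which moved all genes, the median was -0.105 (all genes -0.30). EGR1, an immediate early transcription factor, lay at 0.11 in the probe set used, while its others gave 3.03, which was called (adjusted p = 0.0457 in limma over all probe sets), and -0.11, which was not. The called gene was DUSP4, a nuclear phosphatase of ERK, with 190.6 and 186.8 with GSK436, against 107.2, 66 and 97.6 with GSK212 and 1224, 1233 and 1266 with DMSO. It was higher by 1.07 ± 0.26 (adjusted p = 0.0311), and the call was lost in 6 of 17 other fits. DUSP6, the cytoplasmic ERK phosphatase, read 86.2 and 83.6 with GSK436, against 3.23, 38.7 and 20.4 with GSK212 and 2343, 2277 and 2899 with DMSO. Its arrays did not overlap between the drugs, but the difference of 2.29 ± 0.64 did not pass (adjusted p = 0.0641), and its GSK212 signals were dim. The ETS factors ETV5 (2.23 ± 0.64, adjusted p = 0.0758) and ETV4 (1.71 ± 0.69, adjusted p = 0.19), and FOSL1, an AP-1 subunit (1.10 ± 0.33, adjusted p = 0.0831), also stood without overlap and did not pass. Of these, DUSP6, ETV5 and FOSL1 were called in 2 or 3 of the 17 other fits. Other probe sets lay at 0.68 and 1.22 for DUSP6, at 1.23 for ETV4, and at -1.115, 1.22, 0.74 and 0.59 for ETV5. None of these was called in the fit of all probe sets. Those of DUSP4 lay at 1.59, which was called there, and at 1.475, which was not. CCND1, the G1 cyclin, lay at 0.95 (adjusted p = 0.143), and EPHA2, PHLDA1, HMGA2, IER3 and SPRED1 lay between -0.38 and 0.31. At the other doses, DUSP4 (1.82, adjusted p = 0.000704), CCND1 (1.42, adjusted p = 0.0321) and EPHA2 (2.46, adjusted p = 0.0254) were called higher with GSK436. Of 14 listed genes of the pathway from RAS through RAF, MEK and ERK to RSK, 9 were measured and none of these 9 was called between the drugs. They were HRAS, ARAF, KSR1, MAP3K8, MAP2K1, MAP2K2, MAPK3, RPS6KA1 and RPS6KA3, with ARAF the only RAF gene among them. RPS6KA2, an RSK gene that the list did not hold, was called higher (1.92). MAP2K1, which encodes MEK1, was the lowest of the 9, at -1.05 (adjusted p = 0.127).

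ER chaperone genes, which answer to another branch of the stress response, were not higher. None of 15 was called higher and 1 was called lower, PDIA6, a protein disulphide isomerase (-1.01 ± 0.25, adjusted p = 0.0305), a call lost in 10 of 17 other fits. The median was -0.51 and 13 of 15 lay below 0. HSPA5, the chaperone BiP, read 4058 and 2502 with GSK436 and 4891, 5276 and 6612 with GSK212 (-0.80 ± 0.22, adjusted p = 0.0565). The groups did not overlap, and the difference missed both thresholds.

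Several genes outside the 4 lists were also higher with GSK436. PMAIP1, the BH3-only death gene NOXA, read 416.6 and 351.1 with GSK436, against 57.5, 79.3 and 126.8 with GSK212, and 826.5, 847.1 and 979.5 with DMSO. It was higher by 2.16 ± 0.24 between the drugs (adjusted p = 3.67e-07), both groups lying below vehicle. Its other probe set lay at 0.35 and was not called in the fit of all probe sets. PMAIP1 was the only called gene among 14 of the BCL2 family. HMOX1, the haem-degrading oxygenase, read 1292 and 1413 against 753.3, 390.6 and 517.3 (1.33 ± 0.20, adjusted p = 0.000105) and was the only one called of 10 NRF2 target genes. EIF4EBP1, the inhibitor of cap-dependent translation, was higher by 1.88 ± 0.26 (adjusted p = 3.38e-05), GRB10 by 2.02 ± 0.28 (adjusted p = 3.38e-05) and RPS6KA2, which encodes a ribosomal S6 kinase that ERK activates, by 1.92 ± 0.44 (adjusted p = 0.0196). The keratin gene KRT7 was higher by 1.04 ± 0.24 (adjusted p = 0.0214), a call lost in 8 of 17 other fits.

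Among the genes lower with GSK436 were surface, matrix, spindle and sterol genes. CD24, a surface glycoprotein that was dim with DMSO, read 1910 and 1560 with GSK436, against 4026, 3957 and 4369 with GSK212 and 56.1, 63.7 and 79.8 with DMSO. It was lower by 1.25 on the log2 scale between the drugs (SE 0.19, adjusted p = 0.000129), and both drugs stood far above vehicle. TGFBI, an extracellular matrix protein, was at -1.17 ± 0.18 (adjusted p = 0.000105), KIF11, a spindle motor, at -1.36 ± 0.29 (adjusted p = 0.0094) and INSIG1, a brake on sterol synthesis, at -1.11 ± 0.28 (adjusted p = 0.0402). KIF11 was the only one called of 21 mitosis genes, TGFBI of 21 matrix genes and INSIG1 of 13 sterol and fatty acid genes. The call for INSIG1 was lost in 7 of 17 other fits, that for KIF11 in 3 and that for TGFBI in 2. The lowest values among bright genes were those of FNDC3A (-2.19 ± 0.43, adjusted p = 0.00423), LMBRD1 (-2.08 ± 0.53, adjusted p = 0.0421), RARS1, EPHA3 (-1.96 ± 0.51, adjusted p = 0.046) and ATP10D (-1.95 ± 0.34, adjusted p = 0.000755). Of these, EPHA3 lost its call in 9 of 17 other fits, LMBRD1 in 7, RARS1 in 6, FNDC3A in 4 and ATP10D in 1. NEFL, a neurofilament subunit, read 970.7 and 486.6 against 1479, 2736 and 3252 (-1.78 ± 0.27, adjusted p = 0.000114), and MEF2C, a transcription factor, was at -1.86 ± 0.33 (adjusted p = 0.00146).

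The count of lower calls moved with single arrays. It was 252 without GSK436 replicate 2, 15 without GSK436 replicate 3, and 394, 61 and 14 without GSK212 replicates 1, 2 and 3. Of the 78 genes called lower, 72 (92.3%) had their highest signal on GSK212 replicate 3, the array with the lowest actin ratio. Among all 2310 genes lower with GSK436 without overlap, 66.1% did. With the actin ratio in the fit, 80 were called lower, but these were not all the same genes. That fit called 146 genes in both directions, and 115 of these were among the 147. Other probe sets of the same gene differed in several cases. FNDC3A had others at -2.09, 0.91 and 0.69, EPHA3 at 0.42 and 0.18, and NEFL at -0.92 and 0.31. ZFAND5, at -1.67 in the probe set used, had others at -0.35, -0.11 and 0.66. MEF2C had others at -0.14 and -0.79. None of these other probe sets was called. On the combination arrays ATP10D (-1.23, adjusted p = 0.0394), NEFL (-1.21, adjusted p = 0.00656) and KIF11 (-1.16, adjusted p = 0.0194) were also called lower at 1 µM GSK436, 6 of the 78 genes in all (7.69% of the 78, 27.3% of the 22).

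Most remaining lists held no called gene between the drugs. DNA replication genes had a median of 0.11 over 20 genes, and RRM2, a subunit of ribonucleotide reductase, lay at -0.65 (adjusted p = 0.0423), under the fold threshold. Growth-restraining genes had a median of -0.76 over 12 genes (all genes 0.12), with 2 above 0, and of -1.18 after centring (all genes -0.30). The lists for p53 targets, interferon response, antigen presentation, lysosome and autophagy, glycolysis, ribosome biogenesis, inflammatory cytokines, pigmentation, receptor tyrosine kinases and xenobiotic response had medians between -0.20 and 0.23, with 0 called of 9 to 19 genes each. In the p53 list, 1 of the 9 unused probe sets of MDM2 was called (-2.09, adjusted p = 0.0457 in limma over all probe sets). Epithelial markers held KRT7 higher and CD24 lower, with a median of -0.23 over 12 genes.

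In resistant cells the same doses gave 11 called ATF4 pathway genes with GSK436 higher, against 26 in parental cells, and 11 called ERK output genes, against 1. The ATF4 pathway counts depended on the fit. In resistant and parental cells they were 15 and 18 after centring, and 10 and 27 after quantile normalization. In fits on only the groups compared they were 13 and 12. Between 1 µM GSK436 and 10 nM GSK212 (3 arrays each), 87 genes were called higher (0.482%) and 323 lower (1.79%), and 21.2% of calls were higher (38.8% after centring). Of the ATF4 pathway 11 of 64 were called higher and 1 lower, with a median of 0.38 (all genes -0.10). Of ERK output 11 of 23 were called higher and 0 lower, with a median of 1.55. ASNS read 2724, 2829 and 2862 with GSK436 and 728.8, 736.6 and 759.1 with GSK212 (1.92, adjusted p = 4.63e-12). DUSP6 read 1036, 1000 and 774.4 with GSK436 and 51.8, 68.6 and 60.7 with GSK212 (3.89, adjusted p = 2.27e-05). The actin ratio ran the other way in these cells, at 20.5, 7.94 and 4.25 with GSK436 and 27.4, 13.7 and 27.1 with GSK212. Of the 69 genes called higher in parental cells 10 were called higher here (14.5% of the 69, 11.5% of the 87).

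The difference between the lines was tested as an interaction, parental minus resistant. It called 148 genes higher (0.819%) and 67 lower (0.371%). Among ATF4 pathway genes 9 were called higher and 2 lower, and among ERK output genes 0 were higher and 4 lower. The drug difference in ASNS was larger in parental cells by 1.62 ± 0.21 (adjusted p = 9.89e-06), that in NUPR1 by 1.99 (adjusted p = 0.000474) and that in DDIT3 by 1.71 (adjusted p = 0.000369). DDIT3 read 366.8, 312.4 and 285.7 with GSK436 in resistant cells and 308.5, 291.3 and 277.6 with GSK212 there. For ATF4 the difference between lines was 0.32 and did not pass (adjusted p = 0.402). The ERK output genes DUSP5 (-2.34, adjusted p = 0.000401), HMGA2 (-1.81, adjusted p = 0.000819), PHLDA1 (-1.77, adjusted p = 0.0111) and IER3 (-1.22, adjusted p = 0.0158) differed between the drugs more in resistant cells. The interaction calls depended on scaling. After centring 52 genes were called, 32.7% of them higher against 68.8% as deposited. NUPR1 was then the only ATF4 pathway gene called (1.35, adjusted p = 0.0159), and ASNS lay at 0.99 (adjusted p = 0.142). The ATF4 pathway median was 0.00389 with all genes at -0.40, against 0.64 with all genes at 0.24 as deposited. Centring shifts all genes alike, so the pathway median stayed 0.40 above that of all genes. ERK output genes called lower after centring numbered 4, DUSP5, HMGA2 and IER3 among them. Single arrays mattered too, with 61 genes called without parental GSK436 replicate 3, 84 without parental GSK212 replicate 3 and 487 without parental GSK212 replicate 1. Leaving out any 1 resistant array gave 115 to 189.

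**Figure D5:**
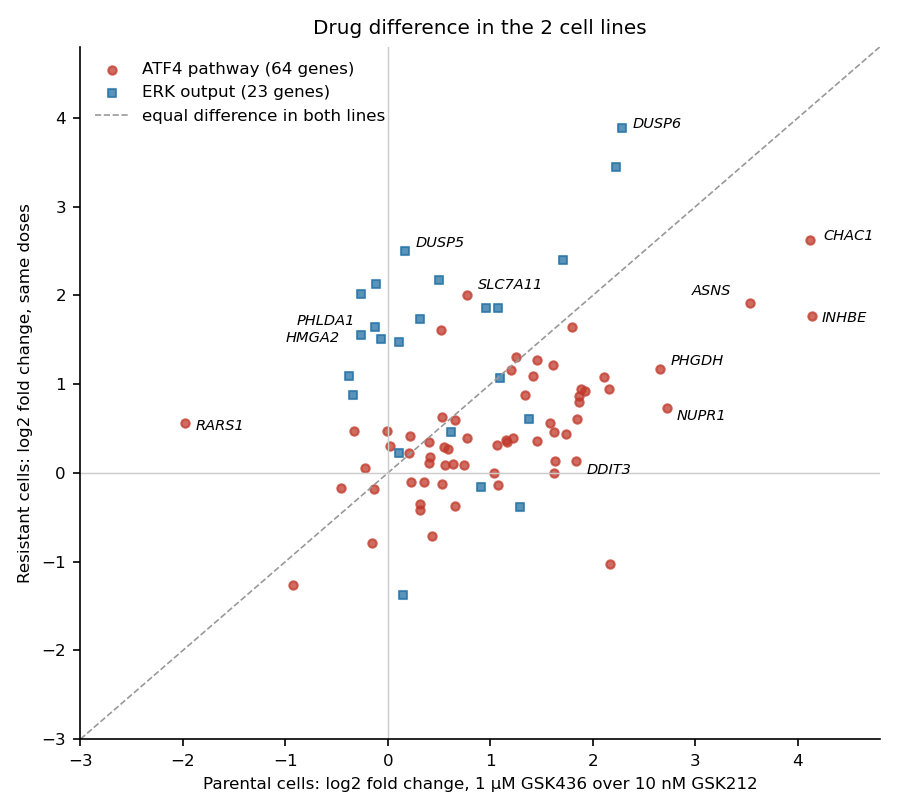
Log2 fold change of 1 µM GSK436 over 10 nM GSK212 in parental cells (horizontal axis) and in resistant cells (vertical axis) for 64 ATF4 pathway genes (circles) and 23 ERK output genes (squares). The dashed line marks equal differences. ASNS, PHGDH, NUPR1 and DDIT3 lie below it, and DUSP6, DUSP5, HMGA2 and PHLDA1 above it.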

How the data were processed

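RNA from 38 samples in 14 labelled groups was hybridised to one-colour Affymetrix arrays. The authors deposited a linear signal intensity for each of 54675 probe sets. MAS5 is the tool named in the submitters' processing notes, and all arrays shared 1 trimmed mean. Probe sets naming 1 gene (41097, platform annotation) entered if 2 or more arrays lay above 34.88, the median over all arrays, and the one with the highest mean log2 value stood for each gene. The filter removed no measured ATF4 pathway gene, and 4 of the 68 listed were not analysed here, nor were 5 of the 14 RAS to RSK genes. The test used log2(signal + 2.8), with the 10th percentile of all signals as pseudocount, so changes of dim genes are understated. limma 3.58.1 in R 4.3.3 fitted 14 group means (24 residual degrees of freedom) with eBayes and a trend, and p was adjusted by Benjamini and Hochberg over 18063 genes. On simulated arrays with 200 of 18063 genes changed in the comparison of 1 µM GSK436 with 10 nM GSK212, the fit recovered 37% of genes changed by 1.5 and 69% of those changed by 2.5 on the log2 scale, with 2 false calls. The simulated noise was independent between arrays and held no array-wide differences in RNA quality or scaling. How many calls on the real arrays are false cannot be told from it.

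Members and lists were chosen with earlier results of these data known, and so were the promoter search and the comparison of the combination groups. Named genes were the 15 called genes furthest from 0 in each direction among bright genes without overlap, all measured genes of the ERK output, ATF4 pathway and pathway kinase lists, and up to 6 called and 2 other genes of each further list. Other fits used another normalization, pseudocount, filter, probe set summary, variance model, set of arrays, a replicate block, the actin ratio or array weights. The number of arrays limits the precision.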

Additional observations from a re-analysis of the deposited data

Results flagged for a closer look

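The drug difference (1 µM GSK436 over 10 nM GSK212) differed between parental and resistant cells in 26 of the named genes. These had an adjusted p under 0.05 in limma's interaction term and a log2 value of 1 or more in either direction. Values are log2, parental minus resistant, and none was weighed for a cause.

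ATF4 pathway genes with the larger difference in parental cells were NUPR1 (1.99), DDIT3 (1.71), ASNS (1.62), PHGDH (1.49), PSAT1 (1.21), YARS1 (1.15), MTHFD2 (1.06), SARS1 (1.03) and GARS1 (1.00). Outside these lists, ELK2AP (2.76), HMOX1 (1.98), GRB10 (1.51), PMAIP1 (1.42), EIF4EBP1 (1.35) and PCK2 (1.27) were also higher. HMOX1 read 273.1, 343.2 and 325.4 with GSK436 and 439.9, 543.3 and 487.8 with GSK212 in resistant cells, the other way round from parental cells. CD24, at 1.86, was lower with GSK436 in both lines and by more in resistant cells, where it read 67.8, 89.6 and 73.0 with GSK436 and 696, 714 and 628 with GSK212.

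Lower in the interaction were the ERK output genes DUSP5 (-2.34), HMGA2 (-1.81), PHLDA1 (-1.77) and IER3 (-1.22), and RARS1 (-2.54), FNDC3A (-2.36), ZFAND5 (-1.94), IL11 (-1.49), SLC7A11 (-1.23) and RRM2 (-1.03). DUSP5 and NUPR1 were called under all 23 other settings. ASNS, CD24, DDIT3 and HMOX1 were called under 22 and lost with centring, at 0.99, 1.22, 1.07 and 1.34. HMGA2 and IL11 were also called under 22. The fewest were 7, for SARS1. Centring left 5 of the 26 called.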

How the results depend on the processing

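No result named here reversed among called values, and 12 named genes were called under all 17 other fits: INHBE, CHAC1, ASNS, NUPR1, PHGDH, PCK2, TRIB3, DDIT3, MTHFD2, GARS1, SARS1 and WARS1. Genes called between the single drugs in parental cells, 147 as reported, numbered 248 after quantile normalization, 81 with the mean of probe sets, 15 with only the groups compared and 244 with array weights, and 44 to 566 with 1 array left out. A fit on the 5 arrays alone has few degrees of freedom, but whether that lowered the count was not tested. Under the same setting some counts given below rose and others fell. At adjusted p alone 213 genes passed. ATF4 pathway calls, 27 as reported, were 13 with only the groups compared and 20 to 29 with 1 array left out. ERK output calls, 1 as reported, were 0 after centring and with only the groups compared, 2 with the 25th percentile as pseudocount or the 75th as filter, 3 with array weights and 0 to 4 with 1 array left out. Calls between 0.1 µM GSK436 and 30 nM GSK212, 417 as reported, were 740 (quantile), 38 (centred), 121 (mean of probe sets), 122 (no trend), 706 (only the groups compared), 182 (actin ratio) and 718 (array weights), and 44 to 297 with 1 array left out. Between the combinations, 83 as reported, they were 160, 36, 54, 303, 50 and 788 (quantile, centred, mean of probe sets, only the groups compared, actin ratio, array weights), and 46 to 155 with 1 array left out. In resistant cells the 410 were 268 centred and 706 with array weights, and 297 to 391 with 1 array left out. Against DMSO, the 3516 of GSK436 were 1949 with the actin ratio and 1899 to 4113 with 1 array left out, and the 2116 of GSK212 were 3960 with array weights and 1755 to 2581 with 1 array left out. The 215 interaction calls were 52 centred, 141 with the mean of probe sets, 128 with only the groups compared, 126 with the actin ratio and 574 with array weights, and 61 to 487 with 1 array left out. For these counts the cause was not tested. After centring, 13.1% of the calls of GSK436 against DMSO were higher, against 60.6% as deposited, and 40.3% of those of GSK212, against 65.5%. Of the other named values, 41 lost a call with only the groups compared, 21 with the mean of probe sets, 19 after centring and 28 without GSK436 replicate 3, the most with 1 array left out. No pairing by replicate number was used, and deviations of same-numbered arrays correlated at -0.034 and -0.081. These values cannot show that the arrays were unpaired, because the 2 GSK436 arrays deviate from their mean as mirror images. A replicate block called 212 genes, 27 of them ATF4 pathway genes that were higher.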
